A study of Homo sapiens with 3 samples.

Results

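This account concerns the p63 binding sites of FaDu cells that lie far from any mapped site of ZNF148. They are the p63 peaks of chromosomes 1 to 22 and X whose summit has no ZNF148 summit within 100 kb, and 2156 of 21520 p63 peaks met that rule (10.0%, 95% Wilson interval 9.62 to 10.4%). They are called remote p63 peaks here. Chromatin immunoprecipitation with sequencing (ChIP-seq), which maps where a protein sits on DNA, was carried out in FaDu, an established line of pharyngeal squamous carcinoma cells that received no treatment in any library. The series holds 3 samples, namely input DNA without antibody, a library with an antibody against ΔNp63α and a library with an antibody against ZNF148. The labels give 3 independent ChIP assays as the origin of the DNA, but each antibody has 1 peak list from 1 cell line, which leaves every value without a replicate error and without a p-value. Wilson intervals take peaks as independent and hold the counting error alone. The remote peaks were chosen by the measured summit positions of both lists, so their distances are a description. Their spacing and their number per Mb rest on the same positions and are a description too. Their strength, length and local background were not used in the choice.

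ΔNp63α is the form of the p53 family protein p63 that predominates in the basal layer of stratified epithelia, where it sustains the proliferative, squamous state. It binds paired copies of a p53-type half-site, largely at enhancers that can lie far from promoters, and it can bind its site in compact chromatin. ZNF148 is a zinc finger protein with a preference for GC-rich elements, which are common at promoters and CpG islands. The strength of a peak is given below as its deposited fold enrichment, the ratio of fragments over background at the summit, and its rank comes from the deposited q value.

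The depth behind the peaks could be read from the lists. For each peak, 1 whole number of fragments at the summit reproduced both the deposited fold and the deposited p-value, in 21520 of 21520 p63 and 37883 of 37883 ZNF148 peaks. Remote peaks had a median of 30 fragments at the summit (quartiles 21 and 50, range 10 to 195), so the median peak carries an exact 95% Poisson counting interval of 20.2 to 42.8 fragments. The lowest background used in testing was 1.27 fragments for p63 and 0.386 for ZNF148, a ratio of 3.28. A ZNF148 peak could therefore rest on as few as 5 fragments. The median ZNF148 summit held 14 fragments, against 38 for p63. Both values were lower for ZNF148, and neither was taken as a measure of sensitivity. The part of library depth in them was not tested. Weak ZNF148 sites may have gone uncalled, and their number was not tested. Being remote means that no ZNF148 peak was called within the limit. It does not show that ZNF148 was absent.

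Remote p63 peaks were weaker than the remaining p63 peaks, but nearly as strong as p63 peaks at intermediate distances from ZNF148. Their median fold enrichment was 10.7 (quartiles 7.94 and 17.2), against 13.7 (8.49 and 25.3) for the other 19364 p63 peaks, a ratio of medians of 0.782. Among the remote peaks, 417 had a fold of 20 or more, or 19.3% (17.7 to 21.1%), beside 32.2% of all p63 peaks. Against the 9121 p63 peaks whose nearest ZNF148 summit lay 10 to 100 kb away, which had a median fold of 11.5 and 23.0% at 20 or more (22.2 to 23.9%), the ratio of medians was 0.927. Peaks within 1 kb of a ZNF148 summit stood apart from both, with a median fold of 22.6 and 55.0% at 20 or more. In the plot of fold distributions the curves of the remote peaks and of those at 10 to 100 kb run close together.

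**Figure D1:**
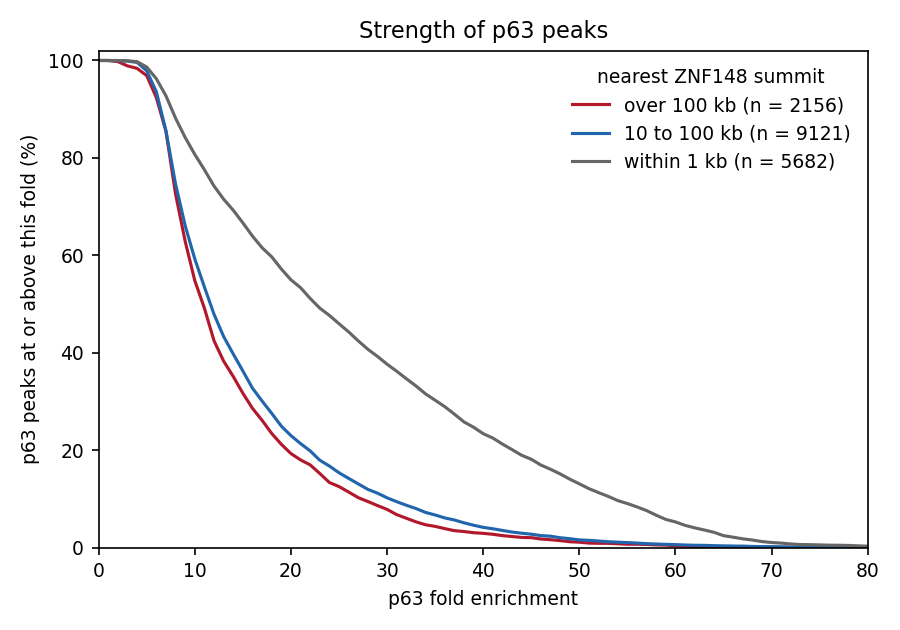
Share of p63 peaks (y axis, percent) at or above a given p63 fold enrichment (x axis) for peaks whose nearest ZNF148 summit lay over 100 kb, 10 to 100 kb or within 1 kb away. At a fold of 20 the shares were 19.3%, 23.0% and 55.0%.

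Strength fell mostly between p63 peaks within 25 bp of a ZNF148 summit and those 26 bp to 1 kb away. It fell little across the 100 kb limit. Median fold was 31.8 within 25 bp, 15.0 at 26 bp to 1 kb, 12.4 at 1 to 10 kb, 11.9 at 10 to 50 kb and 11.1 at 50 to 100 kb. Among the remote peaks the median fold was 10.9 at 100 to 200 kb (1445 peaks), 10.6 at 200 to 500 kb (603 peaks) and 9.27 beyond 500 kb (108 peaks). The share with a fold of 20 or more was 19.8% at 50 to 100 kb and 19.7%, 18.1% and 21.3% in the successive bands beyond it, with overlapping counting intervals. Peak width followed the same course. Remote peaks had a median length of 214 bp, against 224 bp at 10 to 100 kb and 274 bp within 1 kb. More than 1 summit was rare in p63 peaks of either kind, with 12 of the 2156 remote peaks (0.557%) and 170 of the other 19364 (0.878%).

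Remote peaks reached the top of the p63 list, though they were scarce there. When the p63 list was cut into 10 rank classes, 63 of the 2152 most significant peaks were remote, or 2.93% (2.29 to 3.73%). The share rose to 9.76% in class 5 and 13.7% in class 9 and stood at 12.8% in class 10, which is 4.38 times that of class 1. The rise was smaller once peaks at or near ZNF148 sites were left out. Over p63 peaks more than 1 kb from a ZNF148 summit the remote share was 7.49% in class 1 and 15.0% in class 10, a ratio of 2.01. Over those more than 10 kb away it was 12.8% (10.1 to 16.0%) and 20.7% (18.6 to 23.0%), a ratio of 1.62. These narrower comparisons were added after the data were seen.

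**Figure D2:**
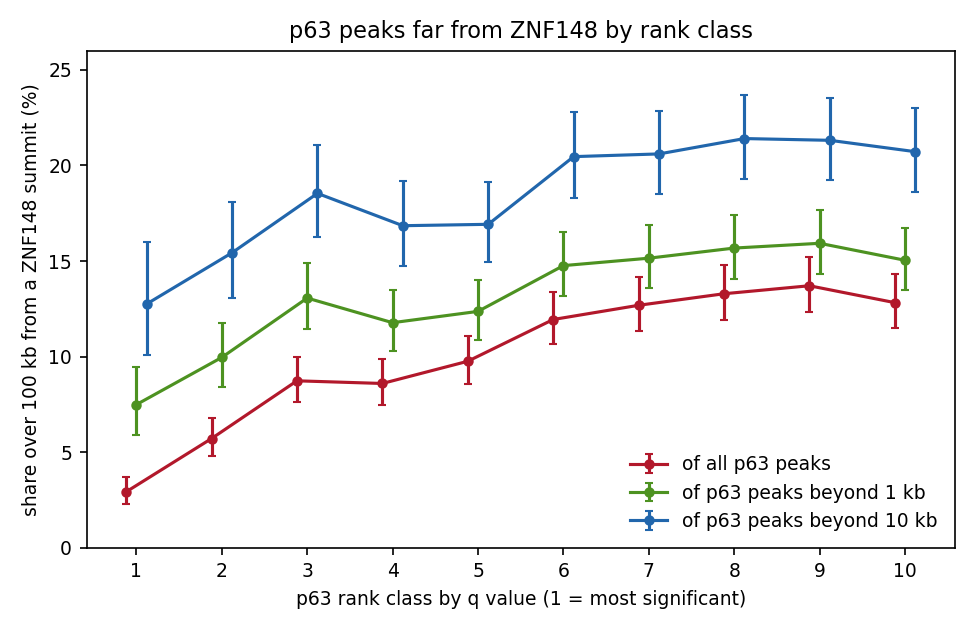
Share of p63 peaks that were remote (y axis, percent) in 10 classes by q value (x axis, class 1 most significant), over all p63 peaks and over those beyond 1 kb or 10 kb from a ZNF148 summit. Points carry 95% Wilson intervals; the class 1 shares were 2.93%, 7.49% and 12.8%.

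The 20 most significant remote peaks were spread over 13 chromosomes and ranked between 49 and 914 in the whole p63 list. Their folds ran from 43.9 to 84.3 and their lengths from 297 to 384 bp. The first, chr18:11669664-11669990 (hg19, as are all positions), had a fold of 84.3 and a −log10 q of 336. It rested on 195 fragments at the summit, with a counting interval of 169 to 224, over a background of 1.33, and its nearest ZNF148 summit was 159 kb away. It shared a 523 kb stretch without ZNF148 summits with 4 weaker remote peaks, and the median fold of the 5 was 8.83.

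Next in rank came chr3:31147750-31148090, with a fold of 76.4 and 172 fragments, 144 kb from ZNF148 and 4.89 kb from another p63 summit. The peak chr15:33743624-33743949 had a fold of 66.5 with 183 fragments, and chr1:55786566-55786910 a fold of 68.7 with 170. Both sat near the limit, at 108 and 106 kb from a ZNF148 summit. By contrast chr4:187289459-187289808 was 224 kb from ZNF148 and 253 kb from the nearest p63 summit, with a fold of 71.4 and 165 fragments. It was the only remote peak in a ZNF148-free stretch of 581 kb.

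Solitary strong peaks of that kind recurred among the 20. On chromosome 10, chr10:132892940-132893244 had a fold of 57.1 and no other p63 summit for 415 kb, and its ZNF148 distance of 308 kb was the largest of the 20. chr20:20583994-20584377 had a fold of 60.9, with the next p63 summit 448 kb away, and chr7:26530973-26531296 a fold of 61.4 with the next at 206 kb. On chromosome 5, chr5:77175769-77176097 had a fold of 66.2 and chr5:13143775-13144074 a fold of 49.3, with the next p63 summits at 239 and 273 kb. In all, 7 of the 20 had no p63 summit within 100 kb and 6 had one within 10 kb.

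Others shared their stretch with further remote peaks or had a p63 summit close by. chr5:31408990-31409321, with a fold of 45.1, belonged to a stretch with 4 remote peaks of median fold 22.9, and chr1:100045978-100046290, with a fold of 43.9, to another with 4, of median fold 19.6. chrX:3281020-3281384 had a fold of 45.4 inside a ZNF148-free stretch of 2247 kb that held 4 remote peaks. chr13:43192642-43192938 (fold 60.5) was 1.41 kb and chr12:79760951-79761273 (fold 48.0) was 7.85 kb from the next p63 summit. chr3:181770154-181770482 (fold 48.6) and chr14:67399338-67399688 (fold 59.1) each shared their stretch with 1 other remote peak. The only remote peaks of their stretches were chr18:34252359-34252706 (fold 59.2), 72.8 kb from the next p63 summit, and chr7:119373564-119373923 (fold 57.8), 146.5 kb from it. Backgrounds ran from 1.27 to 3.24 fragments across all 20, so these folds rest on high summit counts over a low background.

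The remaining one of the 20, chr1:152140285-152140615, lies in the chromosome 1 region known for the epidermal differentiation complex, a cluster of genes for the cornified envelope and its calcium-binding proteins. No gene annotation of build hg19 was used here, so that placement is background knowledge at the level of the chromosome band. Its fold was 50.8 with 162 fragments. It stood in a ZNF148-free stretch of 393 kb with 9 p63 peaks, 5 of them remote. The other remote peaks there had folds of 46.8 (110 fragments), 24.5 (72), 7.39 (21) and 5.37 (15), and they spanned chr1:152140661 to 152169635. Strong and weak p63 peaks thus stood side by side in this stretch, with 3 remote ones above a fold of 20.

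p63 peaks thinned out with distance from ZNF148, and the remote stretches were the poorest in p63. Of the 2949 Mb between the first and last summits on each chromosome, 860 Mb or 29.2% lay more than 100 kb from a ZNF148 summit, yet they held 10.0% of p63 peaks. That is 2.51 peaks per Mb, against 9.27 per Mb in the nearer 2089 Mb. The density fell from 10.3 per Mb at 1 to 10 kb to 6.48 at 10 to 50 kb, 4.54 at 50 to 100 kb, 3.35 at 100 to 200 kb and 2.20 at 200 to 500 kb. Unsequenced and unmappable DNA counts in the span. Leaving out stretches of 1 Mb or more without any peak, the remote density was 3.13 per Mb and the nearer one 9.32, a ratio of 2.97 in place of 3.70. Such stretches are chosen for holding no p63 peak, which raises the remote density by construction. Beyond 500 kb the 2 ways of counting differed most, with 0.700 and 3.38 peaks per Mb. With the peak-free stretches left out, the density was 3.44 at 100 to 200 kb and 2.56 at 200 to 500 kb. Counted that way, it did not go on falling beyond 500 kb.

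**Figure D3:**
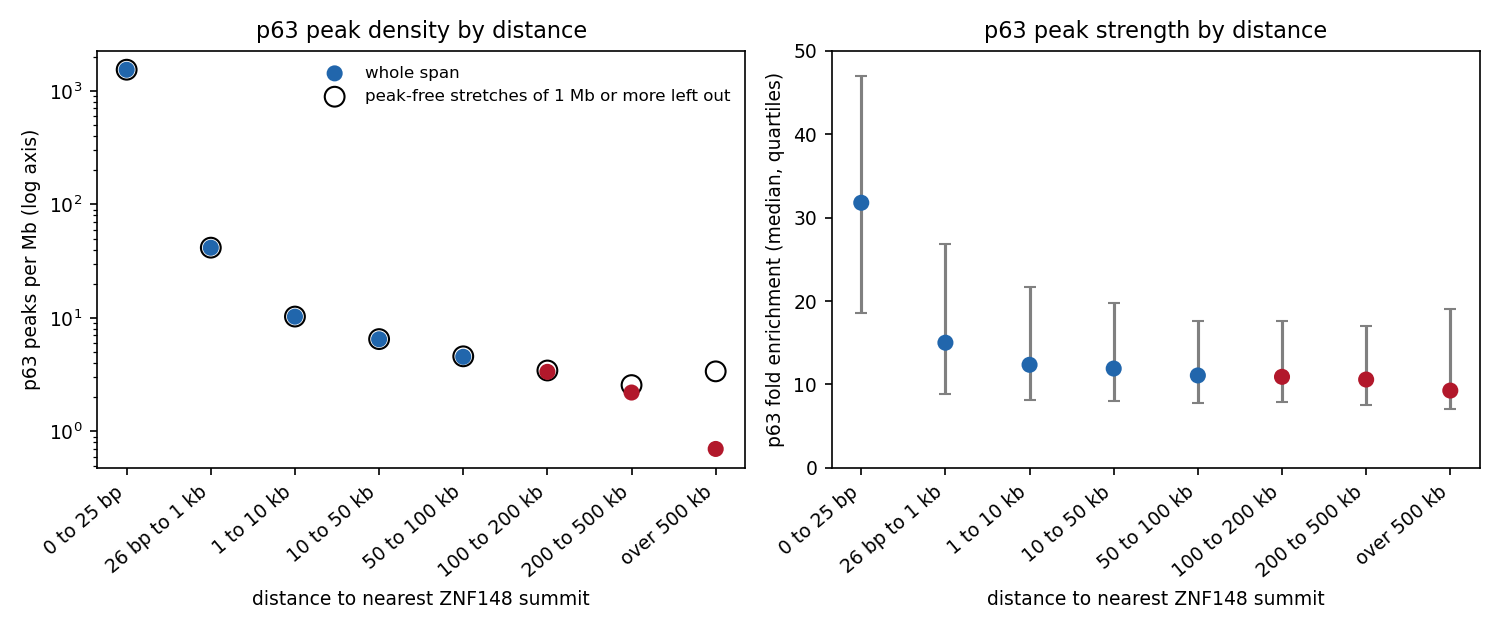
Left, p63 peaks per Mb (y axis, log scale) by distance of the position from the nearest ZNF148 summit (x axis), with open circles for the span without long peak-free stretches; right, median p63 fold enrichment with quartiles (bars). Remote bands are red: density goes on falling beyond 1 kb in the closed points, to 2.20 per Mb at 200 to 500 kb, while median folds beyond 10 kb lie between 9.27 and 11.9.

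The local background of remote peaks lay between those of the nearer sets. Its median was 1.62 fragments, against 1.86 for p63 peaks at 10 to 100 kb from ZNF148 and 1.55 for those within 1 kb. The background was at its floor in 35.2% of remote peaks (33.2 to 37.2%), in 28.8% of those at 10 to 100 kb (27.9 to 29.8%) and in 35.7% of those within 1 kb. The part of background in the differences in fold was not tested. A background of 5 fragments or more was found at 48 remote peaks, or 2.23%, near the 2.20% of all p63 peaks. Summit counts differed in the same direction as folds, with medians of 30 fragments at remote peaks, 33 at 10 to 100 kb and 63 within 1 kb.

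The median remote peak was 156 kb from the nearest ZNF148 summit (quartiles 123 and 232 kb), against 8.44 kb for the other p63 peaks. The limit cuts through a continuous range. The 5 remote peaks nearest to the limit were on chromosome 7 (157346788 to 157346998, fold 6.18, 100.1 kb), chromosome 1 (78579925 to 78580077, fold 4.88), chromosome 2 (99657319 to 99657560, fold 24.4), chromosome 10 (128877971 to 128878130, fold 7.68) and chromosome 13 (81051917 to 81052103, fold 8.83, 100.3 kb). The 5 p63 peaks that missed the limit by least were on chromosome 5 (175324441 to 175324610, fold 7.95, 99.9 kb), chromosome 1 (61984724 to 61984996, fold 29.8), chromosome 2 (196487655 to 196487823, fold 7.06), chromosome X (117265547 to 117265751, fold 9.27) and chromosome 18 (2147992 to 2148218, fold 13.1, 99.5 kb). The folds on the 2 sides overlapped. Measured between peak edges, 3 remote peaks had a ZNF148 peak within the limit, the nearest at 99.9 kb.

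Only 20 remote peaks lay more than 1 Mb from ZNF148. Of the 10 farthest, 9 belonged to 1 group of weak peaks on chromosome X, at 58568237 to 58581667, with folds of 2.08 to 3.73 and distances of 1378 to 1392 kb. The tenth was chr4:33748769-33748939, at 1381 kb, with a fold of 5.71 and no other p63 summit for 1340 kb. Among remote peaks with a fold of 20 or more, chosen for naming after the values were seen, the farthest was chr21:31850326-31850599, at 1031 kb with a fold of 30.5 and 79 fragments. It was followed by chr9:44210126-44210447 at 795 kb (fold 26.7), chr3:79474038-79474294 at 749 kb (23.8), chr5:27472166-27472385 at 728 kb (20.5) and chr7:118512656-118512919 at 688 kb (25.7). Well-supported p63 peaks were thus found at the far end of the distances as well.

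Remote peaks were spread over every chromosome analysed, with the highest shares where long ZNF148-free stretches make up more of the chromosome. They made up 18.7% of the p63 peaks of chromosome 13 (91 of 487, 15.5 to 22.4%), 18.4% on X, 18.2% on 4, 17.5% on 18 and 16.7% on 21. These 5 chromosomes held 23.2% of remote peaks and 12.9% of all p63 peaks. The share was lowest on chromosome 22, with 12 of 477 or 2.52% (1.44 to 4.35%), then on 17 (4.34%) and 19 (4.86%), which are known to be rich in genes. Across the 23 chromosomes the share followed the percentage of the span that was free of ZNF148 (Pearson's r 0.94 and Spearman's rho 0.93). Without chromosomes 21 and 13, r was 0.95. Both quantities use the same ZNF148 summits, so this relation describes the rule and carries no p-value.

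**Figure D4:**
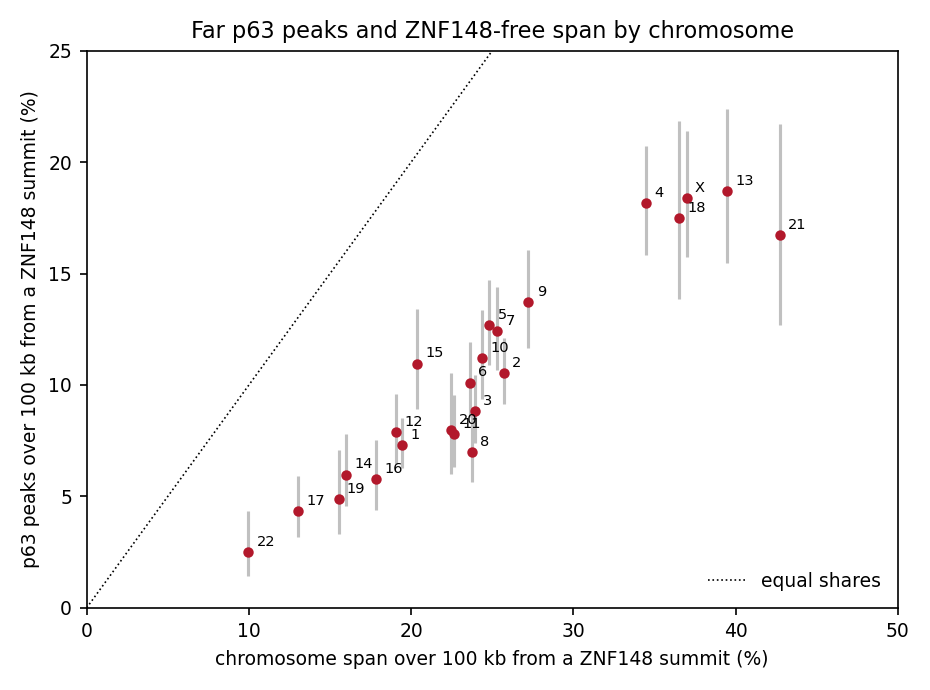
Remote share of p63 peaks (y axis, percent, with 95% Wilson intervals) against the part of each chromosome more than 100 kb from a ZNF148 summit (x axis, percent, long peak-free stretches left out), one point per chromosome. All 23 points lie below the line of equal shares, from chromosome 22 (2.52%) to chromosome 13 (18.7%).

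The lower density held on each chromosome, and the small difference in strength on most. p63 peaks per Mb were fewer in the remote part than in the nearer part on 23 of 23 chromosomes, also with peak-free stretches left out. The median fold of remote peaks was below that of p63 peaks 10 to 100 kb from ZNF148 on 20 of 23, the exceptions being 7, 19 and 22. On chromosome X the median was 8.83, and 10.2 without 26 weak peaks described below. The strongest remote peaks of chromosomes 21 and 22 were chr21:42258914-42259214 (fold 30.9, 91 fragments) and chr22:33040395-33040730 (fold 48.7, 144 fragments), so the chromosome with the smallest remote share also had a strong one.

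Remote peaks sat mostly alone or in small numbers within ZNF148-free stretches. Between neighbouring ZNF148 summits, or beyond the outermost ones, 3796 stretches were long enough to hold a remote peak, with a median length of 308 kb. Of these, 1279 held at least 1 and 2517 none. A single remote peak was found in 783 stretches, a pair in 293 and 3 or more in 203. Remote peaks that were alone in their stretch made up 36.3% of the total. Stretches with a remote peak were longer, with a median of 427 kb against 270.5 kb without, as the rule leaves more room in long ones.

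The 10 stretches with the most remote peaks differed in kind. The highest number, 26, was in chromosome X between 57189863 and 61962231, around the centromere, and all 26 peaks were weak, with folds of 1.97 to 3.73. The second, on chromosome 9 between 46445227 and 66519315, held 12 remote peaks, all at its margins, because 18.5 Mb within it had no peak of either protein. Their folds ran from 7.06 to 47.2, and the strongest, chr9:65836875-65837174, had 106 fragments over a background of 1.27. Another 2 of the 10 stretches lay on the short-arm side of chromosome 9, between 42857005 and 45005333 with 8 remote peaks and between 40854359 and 42251687 with 7. Those reached folds of 26.7 and 28.7 on backgrounds no higher than 2.97 fragments.

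Away from centromeres the fullest stretch was on chromosome 10, between 8374812 and 9562317, with 10 remote peaks in 1188 kb. Its folds were 35.8, 6.05, 7.95, 11.0, 11.5, 22.1, 9.07, 23.4, 9.58 and 36.2 in order of position, so 4 exceeded 20. The outermost, chr10:8477206-8477538 and chr10:9017551-9017821, were the strongest, with 80 and 81 fragments. They lay 103 and 545 kb from the nearest ZNF148 summit.

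Chromosome 21 between 30808044 and 32881316 held 8 remote peaks with folds of 7.95 to 30.5, and chromosome 15 between 95220411 and 96193457 held 7 with folds of 7.79 to 35.3. In the latter, 4 of the 7 lay between 95770155 and 95831380, where chr15:95770155-95770444 was the strongest, with 93 fragments. The shortest of the 10 stretches, on chromosome 7 between 80342892 and 81040638, packed 7 remote peaks into 698 kb. Only 2 of them were strong, chr7:80702917-80703243 with a fold of 38.3 and chr7:80549499-80549733 with 22.2. Chromosome 5 had a pair of such stretches, between 21558060 and 23296213 with 8 remote peaks (folds 4.54 to 17.4) and between 26476615 and 28200397 with 7 (6.68 to 20.5). There the remote peaks were mostly modest, and 1 of the 15 reached a fold of 20.

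**Figure D5:**
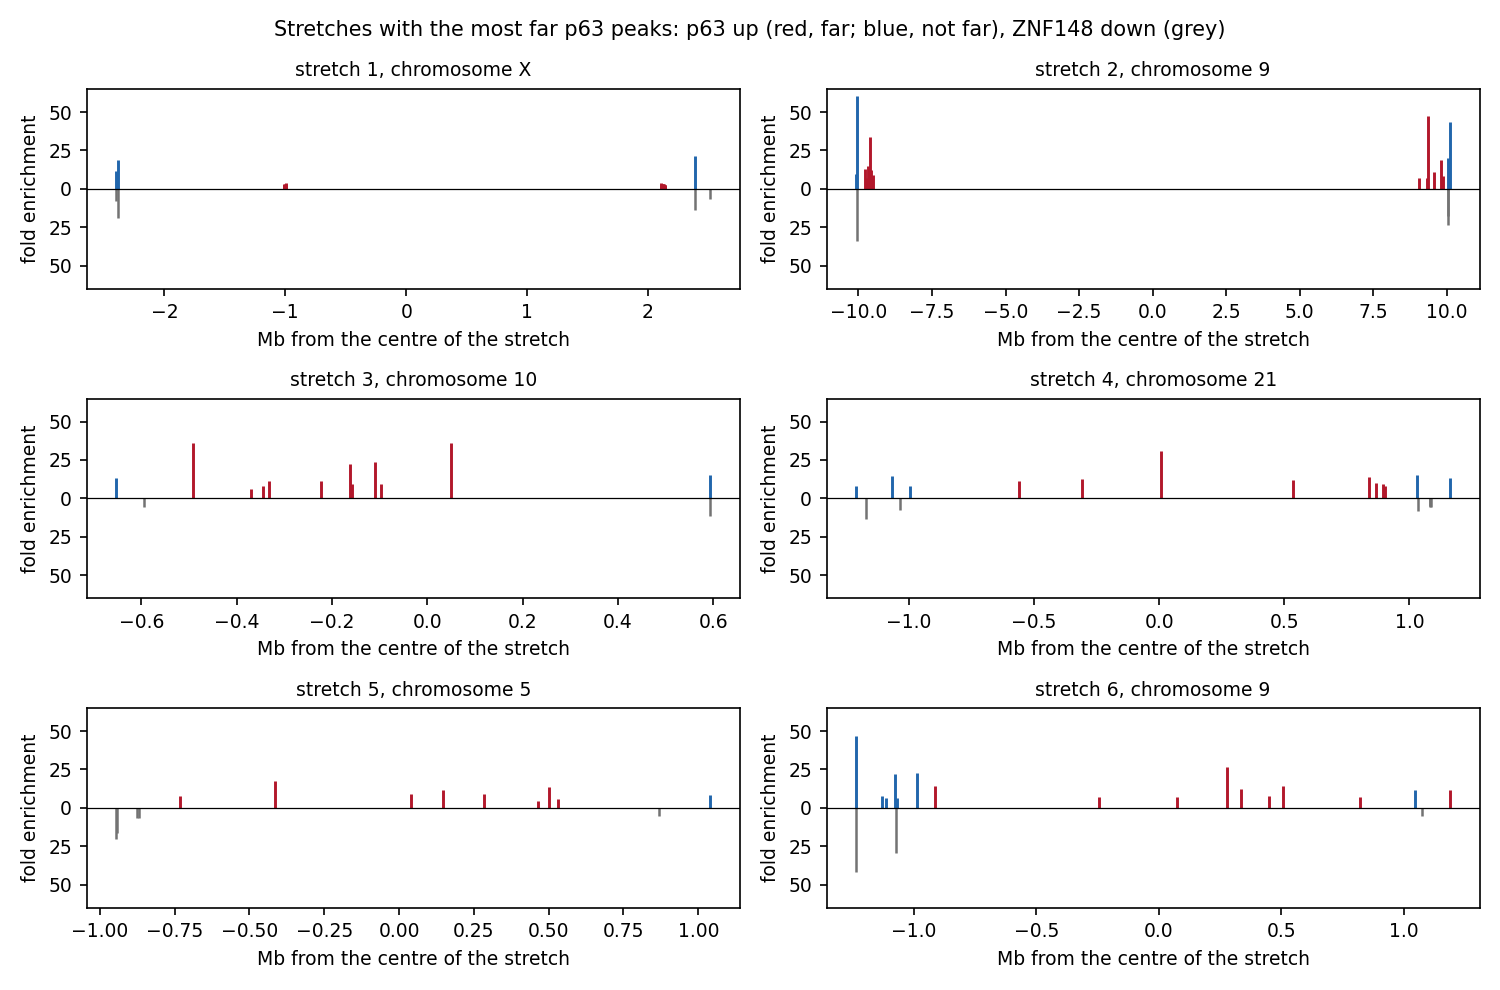
Peaks in the 6 ZNF148-free stretches with the most remote p63 peaks, drawn as vertical lines at their distance from the centre of the stretch (x axis, Mb), with fold enrichment of p63 upward (red, remote; blue, not remote) and of ZNF148 downward (grey) on the y axis. On chromosome X no remote peak exceeds a fold of 3.73, while those on chromosome 10 reach 36.2.

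The ZNF148 peaks at the ends of these long stretches coincided with p63 more often than other ZNF148 peaks. Of 2403 ZNF148 peaks bounding a stretch with a remote p63 peak, 488 had a p63 summit within 25 bp, or 20.3% (18.7 to 22.0%). For the 4080 that bounded only stretches without a remote peak the share was 20.7% (19.5 to 22.0%), and for the remaining 31400 ZNF148 peaks 5.01% (4.77 to 5.25%). The share was thus alike at the ends of stretches with and without remote peaks. The remaining ZNF148 peaks bound no stretch long enough to hold a remote peak. Widely spaced ZNF148 peaks are thereby set beside more closely spaced ones. These shares use the same summit positions as the rule, so they are a description, and this comparison was not planned. ZNF148 folds at these ends were close to those elsewhere, with medians of 9.89, 10.1 and 9.72. An example is chr7:119373564-119373923, whose nearest ZNF148 summit, at 146.5 kb, lay beside its nearest p63 summit, also 146.5 kb away on the same side.

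Remote p63 peaks were farther from the next p63 peak than p63 peaks in general. Their median distance to the next p63 summit was 78.7 kb, against 32.5 kb for p63 peaks 10 to 100 kb from ZNF148. Another p63 summit lay within 10 kb of 304 remote peaks, or 14.1% (12.7 to 15.6%), beside 24.2% of all p63 peaks and 20.3% (19.5 to 21.2%) of those at 10 to 100 kb. In the adjoining band of 50 to 100 kb the share was 17.9% (16.5 to 19.5%) and the median distance 51.2 kb. For p63 peaks within 25 bp of a ZNF148 summit the share was lower still, at 9.91% (8.88 to 11.1%), with a median distance of 64.6 kb. A low share was thus not particular to remote peaks. Fewer p63 peaks per Mb would lengthen such distances, and the part of density in the distances of remote peaks was not tested. Linked over no more than 10 kb, remote peaks formed 112 pairs, 13 groups of 3 and 4 larger groups.

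Of the larger groups, 3 consisted of weak peaks over high background and 1 of peaks with folds of 10.1 to 35.6 over low background. On chromosome X, 15 peaks at 61682230 to 61719896 had folds of 1.97 to 3.62 over backgrounds of 10.9 to 38.6 fragments, and 11 peaks at 58566475 to 58581667 had folds of 2.08 to 3.73 over 9.43 to 34.6. On chromosome 17, 4 peaks at 22245518 to 22253767 had folds of 1.63 to 2.01 over 56.4 to 73.4. All 3 lie beside the centromeres, as known from chromosome maps. The fourth group, chr7:86946174-86960567, had folds of 35.6, 19.1, 10.1 and 12.4 over backgrounds of 1.98 to 2.06 fragments, with up to 108 fragments at the summit.

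Weak peaks over high background were a small part of the whole. A fold under 5 was found at 67 remote peaks, or 3.11% (2.45 to 3.93%), beside 2.07% of all p63 peaks. The 3 groups near centromeres supplied 30 of the 67, and 38 of the 67 had a background of 5 fragments or more. With all p63 peaks of such a background left out, 2108 remote peaks remained, with a median fold of 11.0.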

How the data were processed

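Peak lists for ΔNp63α and ZNF148 were analysed; the input library was not analysed here as a list of its own. Per the submitters' processing notes, build hg19 and the peak caller MACS2 2.2.6 were used, and Bowtie2 2.3.4.3, SAMtools 1.7, FastQC 0.11.9 and MultiQC 1.12 are also named. Settings, the control and duplicate handling are not given in the sources used here. Summits, fold enrichment (a ratio), −log10 p and −log10 q of each peak are the authors' deposited values. The deposited score was not used. Rows with the same start and end were joined as 1 peak with its most significant summit, which left 21520 p63 and 37883 ZNF148 peaks. Fragments at a summit (n) and background (b) were recovered from fold = (n + 1)/(b + 1) and p as the Poisson probability of more than n, accepted when −log10 p matched within 0.001; the largest mismatch was 0.000118. Distances run between summits. Shares carry 95% Wilson intervals; no test was run, with 1 library per antibody. The members and lists were chosen with earlier results of these data known. Named peaks are the 20 most significant, the 10 farthest, the 5 peaks nearest to the limit on each side, the 10 fullest stretches with their strongest peak, and the strongest peak of a named chromosome; other peaks and groups were named after their values were seen. Planned promoter shares, gene lists and motifs need an hg19 sequence or annotation and were not run. Functions were tested on simulated lists. Python 3.11.15, numpy 2.4.6, pandas 2.3.3, scipy 1.17.1 and matplotlib 3.10.9 were used.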

Additional observations from a re-analysis of the deposited data

Results flagged for a closer look

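Outside the analysed chromosomes, 11 of the 72 p63 intervals on contigs lay on 7 contigs with no ZNF148 peak, with a median fold of 4.33. They are given as peaks outside the chromosomes analysed. The contigs were picked for having no ZNF148 peak, so the number is a description and shows no difference between the proteins.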

How the results depend on the processing

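Of 95 recomputed values of the 8 results, 66 lay inside the counting interval of the main value (numbers of peaks within 1.5 times), 29 moved and 0 reversed. Only the ratios of median folds, of densities and of rank classes could reverse. The number of peaks, the shares and the median fold could not. Counting every ZNF148 summit left the set of remote peaks unchanged, so its values could hardly move. The number of remote peaks, 2156, became 4691 with a limit of 50 kb and 711 with 200 kb, 3732 when only ZNF148 peaks with −log10 q of 10 or more counted, and 4219 with the ZNF148 list reduced to the p63 list's length. The share moved with them, to 21.8%, 3.30%, 17.3% and 19.6%, and was 10.8% with ZNF148 −log10 q of 5 or more and 9.52% without peaks near long peak-free stretches. The median fold moved only with p63 −log10 q of 10 or more, to 11.9, which removes the weakest peaks by construction. The ratio of median folds moved only when peaks 1 to 100 kb (0.898) or 10 to 100 kb from ZNF148 (0.927) were the comparison, both added after the data were seen. The density ratio of 0.270 was 0.301 and 0.201 with limits of 50 and 200 kb, 0.312 with ZNF148 −log10 q of 10, 0.324 with lists of equal length, 0.255 without peaks near long peak-free stretches and 0.336 with those stretches out of the span. The 2.92% of remote peaks that ranked among the most significant 10% of p63 peaks became 0.985% at 200 kb. The 14.1% with a p63 neighbour within 10 kb became 16.2% and 11.5% with limits of 50 and 200 kb to ZNF148, 12.7% with p63 folds of 5 or more, 15.7% with ZNF148 −log10 q of 10, and 9.60% and 38.7% with a neighbour limit of 5 and 50 kb. The ratio of rank classes, 4.38, was 16.3 at 200 kb, and 2.01 and 1.62 over p63 peaks beyond 1 and 10 kb. Where the construction does not show it, the cause was not tested. The density ratio was not computed between peak edges. Promoter and motif alternatives were not run.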

Other observations

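The same rule was turned round for ZNF148, for its share and median fold only. Of 37883 ZNF148 peaks, 4647 had no p63 summit within 100 kb, or 12.3% (11.9 to 12.6%), and their median fold was 8.66, against 10.0 for the other ZNF148 peaks. The list lengths differ, so this share and the 10.0% of p63 peaks are set side by side without a comparison.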
